A study of Homo sapiens with 12 samples.

Results

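The histone genes of the HIST clusters were followed through an RNA-seq experiment in the chronic myeloid leukaemia line K562, in which TNF was combined with oligonucleotides against a lncRNA, that is a long RNA that codes for no protein. The members were all loci of the deposited expression table with a gene symbol starting with HIST1H, HIST2H, HIST3H or HIST4H that reached 1 FPKM or more in 3 or more of the 12 libraries. FPKM is the number of fragments divided by the length of the locus and by the size of the library. Of 82 such loci in the table, 61 met the limit, out of 38272 loci in all and 32866 that met the same limit and were tested. The members covered 4 H1, 11 H2A, 29 H2B, 8 H3 and 9 H4 loci. HIST1 symbols made up 56 of them, HIST2 symbols 4 and HIST3 symbols 1. No member shared its row with a gene that is not a histone gene, and 1 row carried both HIST1H2BB and HIST1H2BC. Just inside the limit stood HIST1H2APS3, HIST1H2BO and HIST1H4D, with 1, 1.11 and 1.13 FPKM in their third-highest library. Just outside stood HIST1H1B at 0.97 FPKM, 1 locus of HIST1H2BE at 0.93 FPKM and 1 locus of HIST1H2BD at 0.849 FPKM.

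The 12 libraries formed 4 groups of 3 labelled biological replicates. The TNFSG group received an siRNA (Si623) and a GapmeR (Gap01) against the lncRNA, followed by TNF alpha at 20 ng/mL for 6 hours. The TNF group received the mock pair of oligonucleotides (SiCt and GapCt) and the same TNF treatment. The SG group received the targeting pair without TNF, and the control group the mock pair without TNF. All 4 groups were therefore transfected, and the targeting pair was a single siRNA and a single GapmeR, so an effect on the lncRNA and another effect of these oligonucleotides cannot be told apart.

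Core histones H2A, H2B, H3 and H4 form the protein spool of the nucleosome, and linker histone H1 binds the DNA between spools. Most of their genes lie in clusters on chromosomes 6 and 1, are transcribed in S phase, and give short mRNAs without introns. These mRNAs end in a conserved stem-loop bound by SLBP instead of a poly(A) tail, although several of the same genes can also give longer, polyadenylated transcripts. Many H2A and H2B genes stand head to head and share the DNA between them, and H2B promoters are known for an octamer element bound by the factor Oct-1 (POU2F1).

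The start of HIST1H2AG and the start of HIST1H3H are shown because both genes were higher after the targeted transfection, and because the HIST1H2AG window also holds, in reverse, the promoter of its head-to-head neighbour HIST1H2BJ. The windows run from 250 bases before to 50 bases after the RefSeq start, on GRCh38.p14, both on the plus strand, at chr6:27132793-27133092 for HIST1H2AG (RefSeq symbol H2AC11) and chr6:27809801-27810100 for HIST1H3H (H3C10). Capitals mark every match, on either strand, of the octamer ATTTGCAT, of CCAAT and of TATAAA, and matches may overlap.
HIST1H2AG: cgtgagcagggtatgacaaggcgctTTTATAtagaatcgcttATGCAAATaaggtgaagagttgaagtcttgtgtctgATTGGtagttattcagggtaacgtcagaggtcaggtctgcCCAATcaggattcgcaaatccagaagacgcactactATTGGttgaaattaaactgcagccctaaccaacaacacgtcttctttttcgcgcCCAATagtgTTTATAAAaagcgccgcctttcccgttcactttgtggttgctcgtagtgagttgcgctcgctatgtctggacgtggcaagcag
HIST1H3H: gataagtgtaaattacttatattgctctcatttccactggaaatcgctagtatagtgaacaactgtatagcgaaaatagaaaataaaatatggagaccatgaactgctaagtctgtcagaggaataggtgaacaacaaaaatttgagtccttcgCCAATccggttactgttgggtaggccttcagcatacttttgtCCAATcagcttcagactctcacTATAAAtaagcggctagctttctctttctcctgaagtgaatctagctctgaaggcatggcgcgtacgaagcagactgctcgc
The HIST1H2AG window held 1 octamer, 4 CCAAT and 3 TATAAA matches. The HIST1H3H window held no octamer, 2 CCAAT and 1 TATAAA match. Of the 42 member symbols, 35 matched a RefSeq promoter. The octamer stood in 11 of 14 H2B, 7 of 9 H2A, 1 of 5 H3, 0 of 5 H4 and 0 of 2 H1 windows, against 1.77% of 35116 promoters of the same length. The H3 window with an octamer is that of HIST1H3D, whose RefSeq window is the same as that of HIST1H2AD. CCAAT was found in every H1, H2A, H2B and H3 window and in 0 of 5 H4 windows, against 34.6% of all promoters, and TATAAA in 11.5% of all promoters. A match is a run of letters and not a shown binding site.

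The 3 prime ends are shown because the stem-loop sets how a histone mRNA is processed. Among the GENCODE 29 transcripts of the 42 symbols, a stem-loop of 16 bases was found in those of 19 symbols. A short annotated transcript, such as the 381 bases of HIST1H2BK or the 642 of HIST1H1C, may end before the stem-loop. A missing match therefore does not show that a gene lacks it. Capitals mark the stem-loop, and the flanks of 5 bases are in lower case.
HIST1H3H: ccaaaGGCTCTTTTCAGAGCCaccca
HIST1H2AG: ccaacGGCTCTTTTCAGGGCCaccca
HIST1H2AC: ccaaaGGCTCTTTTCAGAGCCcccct
HIST1H4H: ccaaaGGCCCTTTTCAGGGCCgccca
HIST1H4J: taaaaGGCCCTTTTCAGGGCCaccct
In 16 of the 19 symbols an annotated transcript ran on for at least 50 bases past the stem-loop. The run was 769 bases in HIST1H3H, 1761 in HIST1H2AG, 1128 in HIST1H2AC and 1655 in HIST1H4H, and it was 6 bases in HIST1H4J. The transcripts of HIST1H2BJ held no match to the stem-loop. Whether the libraries were selected for poly(A) tails is not given in the sources used here, so the share of tailed and untailed histone mRNA that they caught is not known.

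Facts of the whole series set the frame. Read totals were not in the file. Relative depths, estimated where low values stepped in whole reads, lay between 0.788 (control replicate 3) and 1.205 (TNFSG replicate 1). NFKBIA, an early target of TNF, lay between 133 and 143 FPKM in the 6 libraries with TNF, against 9.44 to 13.7 FPKM in the 6 without it. The silenced lncRNA was not matched to a row by name and is not analysed here, so no value of it stands behind the labels. The locus of MIR146A, a microRNA gene known to respond to TNF, had 7.77, 4.51 and 4.03 FPKM in TNFSG and 28.1, 25.6 and 21.2 FPKM in TNF, with at most 0.063 FPKM in SG and at most 0.569 FPKM in control. Of the K562 markers, GATA1 stood at 103 to 137 FPKM on its higher locus. Of the markers of other cells, CD3E stayed at 0.139 to 2.11 FPKM, while PTPRC (10.5 to 59 FPKM), EPCAM (48.9 to 64.5 FPKM) and PECAM1 (15.9 to 51.4 FPKM) were detected in every library. Their part in the results was not tested.

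Histone loci were mostly low. The median level of the members, as mean FPKM over the 12 libraries, was 2.8, against 3.17 for all loci tested. Of the 61 members, 13 stood at 10 FPKM or more and 38 under 5 FPKM. By type the median was 2.07 FPKM for H1, 7.43 for H2A, 2.62 for H2B, 2.42 for H3 and 3.19 for H4. The replication-independent histone gene H3F3A, which encodes the variant H3.3, averaged 668 ± 50.3, 647 ± 11.04, 662 ± 72.2 and 655 ± 15.5 FPKM in TNFSG, TNF, SG and control (SD, n = 3 each). H2AFZ, which encodes H2A.Z, averaged 379 ± 17.1, 401 ± 27.2, 363 ± 8.83 and 411 ± 25.6 FPKM in the same groups. These levels stood above those of every H3 and H4 member, and above those of the H2A members other than HIST1H2AM.

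**Figure D1:**
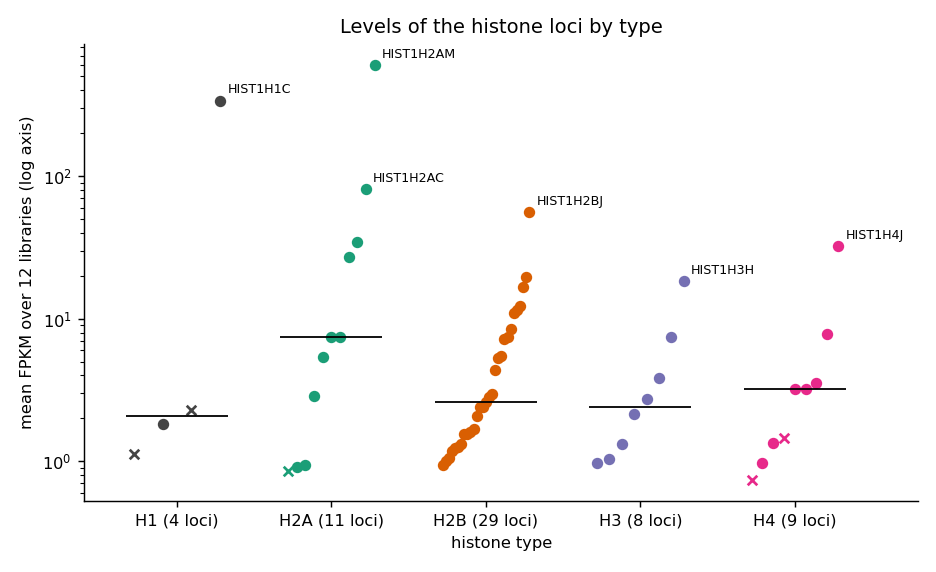
Mean FPKM over the 12 libraries (log axis) of the 61 histone loci, by histone type, each point 1 locus, crosses the 5 loci whose symbol names a pseudogene, and lines the median of the type. HIST1H2AM at 603 FPKM and HIST1H1C at 338 FPKM stand far above the medians of 7.43 and 2.07 FPKM of their types.

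Among linker histones, HIST1H1C, the gene of H1.2, had 312, 289 and 367 FPKM in TNFSG, 333, 335 and 464 FPKM in TNF, 309, 264 and 367 FPKM in SG, and 294, 299 and 422 FPKM in control. The library numbered 3 was the highest in each of the 4 groups, and the groups overlapped. HIST1H1D, the gene of H1.3, averaged 1.83 FPKM, and the pair of loci named for the pseudogene HIST1H1PS1 averaged 2.3 and 1.13 FPKM, the lowest of the type.

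Among H2A loci, HIST1H2AM was the highest and the least steady. It had 1768, 362 and 583 FPKM in TNFSG, 571, 75.0 and 1113 FPKM in TNF, 633, 505 and 579 FPKM in SG, and 268, 266 and 514 FPKM in control. The 3 libraries of TNFSG and those of TNF spanned a wider range than the means of the 4 groups. Of the 50-base windows of its annotated transcript, 13.7% were found in no transcript of another gene, so reads from other histone copies or overlapping genes may be counted there. HIST1H2AC averaged 80.9 FPKM over all libraries, HIST1H2AG 34.3 FPKM and HIST3H2A 27.3 FPKM. The lowest was the pseudogene locus HIST1H2APS3 at 0.855 FPKM.

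Among H2B loci, the highest was 1 of 4 loci named HIST1H2BJ (XLOC_029540), at 56.2 FPKM, followed by HIST1H2BK at 19.7 FPKM and the locus shared by HIST1H2BB and HIST1H2BC at 16.6 FPKM. The lowest was HIST1H2BO at 0.937 FPKM. H2B symbols were the most split in the table: HIST1H2BD stood on 6 member loci (1.05 to 4.36 FPKM), HIST1H2BJ on 4 (5.26 to 56.2), HIST1H2BN on 4 (1.25 to 11.4), and HIST1H2BE (1.67 to 2.8) and HIST1H2BB (1.01 to 1.33) on 2 each. The table gives no coordinates, so loci of 1 symbol are told apart by their identifiers only, and they are not replicates of each other.

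Among H3 loci, HIST1H3H (XLOC_029088) averaged 18.4 FPKM, HIST1H3D 7.38 FPKM and 1 locus of HIST1H3J (XLOC_029556) 3.85 FPKM, and the lowest was the other HIST1H3J locus at 0.98 FPKM. Among H4 loci, HIST1H4J (XLOC_030279) averaged 32.3 FPKM, HIST1H4H 7.81 FPKM and HIST1H4K 3.53 FPKM, and the lowest was 1 locus of the pseudogene HIST1H4PS1 (XLOC_029547) at 0.739 FPKM. The high FPKM of HIST1H4J rested on few reads, 20 to 43 per library where whole reads could be recovered. Of the 50-base windows of HIST1H3D and HIST1H4K, 0% were found in no other gene's transcript, and of those of HIST1H4J 18.8%, so values of these loci may hold reads of other genes. The windows of HIST1H3H were unique in 100%, those of HIST1H2AG in 95.6% and those of HIST1H2BJ in 95.4%.

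After the targeted transfection, 4 of the 61 histone loci rose and none fell. This comparison sets TNFSG and SG together against TNF and control, averaging the effect over both TNF states, with limma's moderated test on log2(FPKM + 1) and Benjamini-Hochberg adjustment over all 32866 loci. The 4 loci were HIST1H3H (XLOC_029088), HIST1H2BJ (XLOC_029540), HIST1H2AG and a low HIST1H2BD locus (XLOC_030177), that is 1 of 8 H3, 2 of 29 H2B, 1 of 11 H2A, 0 of 9 H4 and 0 of 4 H1 loci. Of all loci tested, 0.593% were called higher and 0.517% lower. The members' share called higher was 6.56%.

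HIST1H3H (XLOC_029088), which encodes the replication-dependent histone H3.1, had 21.1, 23.1 and 23.0 FPKM in TNFSG and 13.6, 15.9 and 15.1 FPKM in TNF. It had 20.6, 22.5 and 24.6 FPKM in SG and 12.7, 14.4 and 13.8 FPKM in control. All 6 libraries with the targeting oligonucleotides lay above all 6 without them. Their means were 22.5 ± 1.45 FPKM with and 14.2 ± 1.13 FPKM without (SD, n = 6 each), a ratio of 1.58. The log2 change was 0.62 ± 0.064 (SE), and the limma adjusted p was 0.00304. A low locus of the same symbol (XLOC_030278) did not share this rise and was not called. It averaged 0.501 FPKM in TNFSG, 0.297 in TNF, 0.75 in SG and 2.61 in control. Its averaged change of -0.35 was the lowest among H3 loci. These values stood for 0 to 11 reads per library, with the 11 reads in control replicate 3.

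HIST1H2BJ (XLOC_029540), an H2B gene known to give polyadenylated mRNA, had 68.1, 69.1 and 62.7 FPKM in TNFSG and 51.9, 51.6 and 49.4 FPKM in TNF. It had 62.7, 58.9 and 60.1 FPKM in SG and 47.1, 49.0 and 43.9 FPKM in control. The libraries with and without the targeting oligonucleotides did not overlap, with means of 63.6 ± 4.15 and 48.8 ± 3.01 FPKM (SD, n = 6 each) and a ratio of 1.3. The log2 change was 0.37 ± 0.045, with a limma adjusted p of 0.00544.

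The other 3 loci of HIST1H2BJ, which averaged 5.26 to 11.01 FPKM, had log2 changes of 0.29 to 0.39 and did not pass (limma adjusted p of 0.131 to 0.226).

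HIST1H2AG, the H2A gene that faces HIST1H2BJ, had 38.1, 39.3 and 39.6 FPKM in TNFSG and 29.3, 31.5 and 33.4 FPKM in TNF. It had 35.8, 35.3 and 39.4 FPKM in SG and 28.6, 29.4 and 32.3 FPKM in control. The 6 libraries with the targeting oligonucleotides again all lay above the 6 without, with means of 37.9 ± 1.93 and 30.7 ± 1.93 FPKM. The log2 change was 0.30 ± 0.052, with a limma adjusted p of 0.0343. With 1 library left out it failed in 11 of 12 fits, all but that without control replicate 3, and the limma adjusted p reached 0.1. Over 9 other settings it was lost in 3 (adjusted p up to 0.103), which were median-ratio scaling, quantile normalization and limma without its trend.

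HIST1H2BD (XLOC_030177), 1 of 6 loci with the symbol of another H2B gene, had 2.03, 1.96 and 5.11 FPKM in TNFSG and 1.2, 0 and 0 FPKM in TNF. It had 3.57, 3.93 and 8.61 FPKM in SG and 0.815, 1.31 and 0.518 FPKM in control. In whole reads these values were 6, 4 and 11 in TNFSG, 3, 0 and 0 in TNF, 7, 8 and 21 in SG, and 2, 3 and 1 in control, so the groups did not overlap in FPKM but rested on at most 21 reads. The log2 change was 1.62 ± 0.30, with a limma adjusted p of 0.0416. With 1 library left out the call failed in 11 of 12 fits, all but that without TNF replicate 1 (adjusted p up to 0.103). It also failed in 3 of 8 other settings, which were a pseudocount of 0.1, quantile normalization and limma without its trend. The highest HIST1H2BD locus (XLOC_029053), at 4.36 FPKM, had a change of the other sign, -0.43 ± 0.13, that did not pass (limma adjusted p = 0.155).

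**Figure D2:**
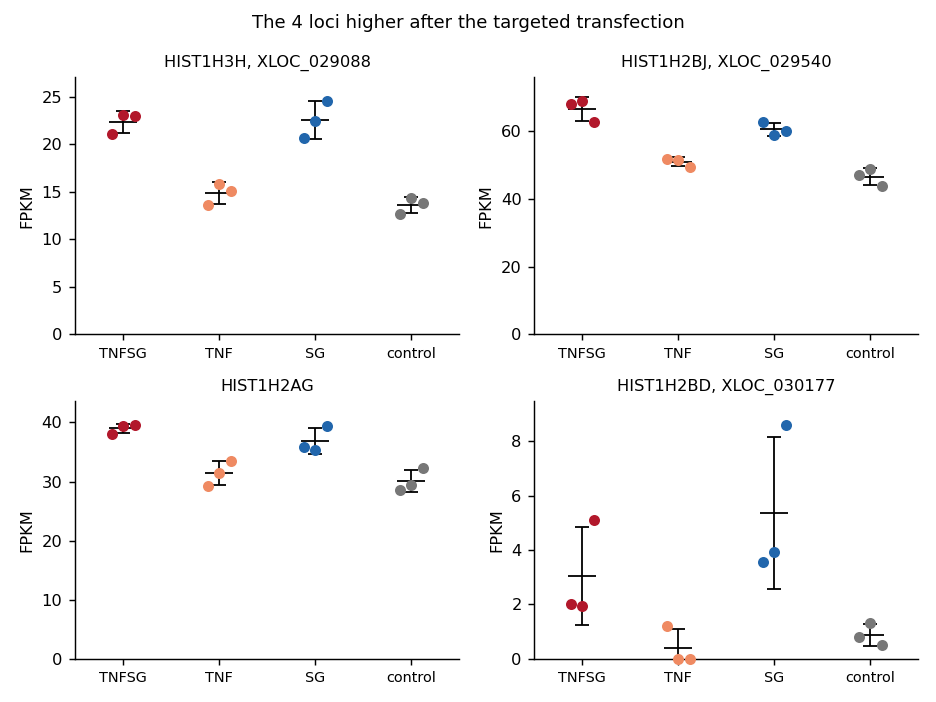
FPKM in each library (points), with group mean and SD (bars, n = 3), of the 4 histone loci higher after the targeted transfection, in TNFSG, TNF, SG and control. In each panel the TNFSG and SG libraries lie above the TNF and control libraries, for HIST1H3H at 20.6 to 24.6 against 12.7 to 15.9 FPKM.

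The calls of HIST1H3H and HIST1H2BJ (XLOC_029540) held in each of 12 fits with 1 library left out and in 9 other settings. The limma adjusted p reached at most 0.0143 for HIST1H3H and 0.0457 for HIST1H2BJ.

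The remaining members did not pass. At an unadjusted p under 0.05, 19 of 61 had positive and 4 negative changes (31.1% and 6.56%), the called loci included, against 10.7% and 3.88% of all loci. The change was above 0 in 47 of 61 members (77%), against 64.2% of all loci, and its median was 0.19, against 0.09 over all loci. All loci thus leaned upward in this comparison. With median-ratio scaling of the libraries the medians were 0.12 for members and 0.03 for all loci, and 43 of 61 members were above 0. With quantile normalization, which moved the median of all loci to -0.02, the members' median was 0.03 and 36 of 61 were above 0.

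The shift differed in size between histone types, as a description without a test. The median log2 change was 0.35 for H3 (7 of 8 loci above 0), 0.33 for H4 (8 of 9), 0.19 for H2B (23 of 29), 0.16 for H2A (7 of 11) and 0.10 for H1 (2 of 4). At an unadjusted p under 0.05, 5 of 8 H3, 3 of 9 H4, 10 of 29 H2B, 1 of 11 H2A and 0 of 4 H1 loci had positive changes. Beside HIST1H3H, the H3 loci HIST1H3J (XLOC_029556), HIST1H3B, HIST1H3F and HIST1H3D had log2 changes of 0.44, 0.36, 0.35 and 0.19, with limma adjusted p values of 0.217 to 0.304. Among H4 loci HIST1H4K had 0.38 and HIST1H4E 0.33 (limma adjusted p of 0.106 and 0.126). Among H2B loci HIST1H2BF had 0.48 and HIST1H2BL 0.49 (limma adjusted p of 0.0839 and 0.13).

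Changes of the other sign did not pass either. HIST1H2AC, which stands among the polyadenylated histone genes, had 77.5, 72.5 and 77.9 FPKM in TNFSG, 78.8, 83.0 and 90.5 FPKM in TNF, 81.9, 70.9 and 78.4 FPKM in SG, and 86.2, 85.8 and 87.4 FPKM in control. SG lay below control in all libraries, while TNFSG and TNF came within 1 FPKM of each other without overlapping. The change was -0.16 ± 0.051 (limma adjusted p = 0.203). HIST1H4C averaged 1.13 ± 0.203 FPKM in TNFSG, 1.58 ± 0.398 in TNF, 0.904 ± 0.294 in SG and 1.74 ± 0.318 in control (SD, n = 3 each), with a change of -0.40 ± 0.14 (limma adjusted p = 0.219).

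**Figure D3:**
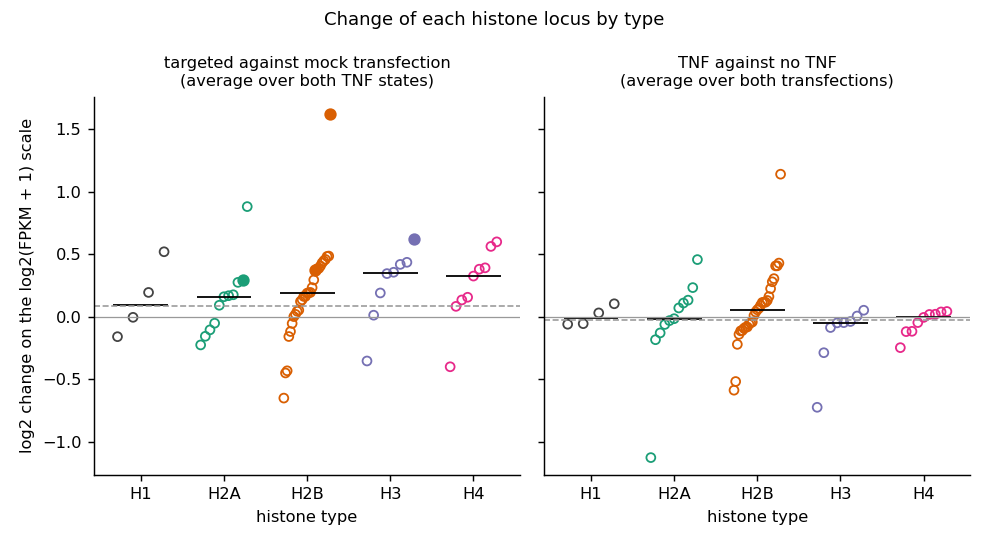
Log2 change on the log2(FPKM + 1) scale of each of the 61 histone loci by type, for the targeted against the mock transfection (left) and TNF against no TNF (right), filled where the limma adjusted p is under 0.05, with the median of the type (black line) and of all loci (dashed line). The H3 and H4 medians of 0.35 and 0.33 lie above the all-loci median of 0.09 on the left, and no point is filled on the right.

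Within each TNF state the comparisons set 3 libraries against 3. Against control, SG had 1 of 61 histone loci higher and 0 lower, where 0.0548% of all loci were called higher and 0.116% lower. The locus was HIST1H3H (XLOC_029088), with a log2 change of 0.69 ± 0.091 and a limma adjusted p of 0.0299. With 1 library left out that call failed in 5 of 6 fits, all but that without SG replicate 1 (adjusted p up to 0.135). It was also lost without the trend and with only SG and control in the fit (adjusted p up to 0.262). At an unadjusted p under 0.05, 16 members were higher and 3 lower (26.2% and 4.92%), against 6.82% and 3.04% of all loci.

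Against TNF, TNFSG had 0 of 61 histone loci called by limma, with 10 higher and 1 lower at an unadjusted p under 0.05 (16.4% and 1.64%, against 6.34% and 2.77% of all loci), and 0.128% of all loci were called. The changes of lowest p were those of HIST1H3H (XLOC_029088), 0.56 ± 0.091 with a limma adjusted p of 0.0666, and HIST1H2BJ (XLOC_029540), 0.38 ± 0.063 with a limma adjusted p of 0.0691. The comparisons within the TNF states share no library, but the averaged effect is made of both.

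TNF itself gave no called histone locus. In TNF against control, TNFSG against SG and the average of both, 0 of 61 members passed by limma, where 1.45%, 1.64% and 4.38% of all loci were called. At an unadjusted p under 0.05 there were 4, 6 and 7 members (6.56%, 9.84% and 11.5%), against 11.2%, 11.4% and 15.9% of all loci. The median change of the averaged effect was -0.0046 for members and -0.03 for all loci (0.01 and -0.0086 with median-ratio scaling), with 30 of 61 members (49.2%) above 0, against 45.9% of all loci.

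The lowest p in the averaged TNF effect belonged to a locus of HIST1H2BJ. HIST1H2BJ (XLOC_030237) had 16.2, 15 and 12.1 FPKM in TNFSG and 11.3, 11.4 and 10.0 FPKM in TNF. It had 10.3, 11.2 and 10.7 FPKM in SG and 9.71, 7.97 and 6.21 FPKM in control. TNFSG lay above SG and TNF above control in all libraries. The averaged TNF effect was 0.41 ± 0.11, with a limma adjusted p of 0.0692. The HIST1H2BJ loci XLOC_030238 and XLOC_030239 had 0.28 and 0.41 (limma adjusted p of 0.125 and 0.149), and XLOC_029540 had 0.13 (limma adjusted p = 0.169).

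HIST2H2AC was the largest change under TNF with the other sign, an averaged effect of -1.12 ± 0.33 (limma adjusted p = 0.106). It had 2.91, 0 and 1.33 FPKM in TNFSG, 2.29, 1.92 and 0.704 FPKM in TNF, 5.83, 5.63 and 3.52 FPKM in SG, and 4.09, 3.74 and 2.22 FPKM in control. These values stood for 0 to 8 reads per library.

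The interaction of both treatments, TNFSG minus SG minus TNF plus control, had 0 of 61 members called by limma and 2 at an unadjusted p under 0.05 (3.28%), where 0.00913% of all loci were called and 3.75% had an unadjusted p under 0.05. HIST1H4J (XLOC_030279) had the lowest p. It had 24.8, 28.4 and 36.4 FPKM in TNFSG, 28.2, 25.9 and 38.5 FPKM in TNF, 48.9, 38.5 and 44.5 FPKM in SG, and 24.7, 22.0 and 26.2 FPKM in control. SG lay above TNFSG and control in every library, while TNFSG and TNF overlapped. The interaction was -0.87 ± 0.25 on the log2 scale (SE) and had an adjusted p of 1 in limma.

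FPKM values were summed over the measured loci of each type, as a description. Single loci made up much of some sums. The 8 H3 loci summed to 42.4 ± 2.58 FPKM in TNFSG and 31.1 ± 3.01 in TNF, and to 45.2 ± 3.72 in SG and 32.4 ± 2.31 in control (SD, n = 3 each). The 29 H2B loci summed to 226 ± 12.4 FPKM in TNFSG and 182 ± 1.82 in TNF, and to 205 ± 5.82 in SG and 168 ± 6.68 in control. The 9 H4 loci summed to 53.8 ± 5.08 FPKM in TNFSG and 50.4 ± 6.10 in TNF, and to 68.9 ± 5.56 in SG and 45.0 ± 2.42 in control. For H3 and H2B the groups with the targeting oligonucleotides did not overlap those without them. Of the H3 sums, HIST1H3H (XLOC_029088) alone held 22.4, 14.8, 22.6 and 13.6 FPKM in TNFSG, TNF, SG and control. Of the H4 sums, HIST1H4J (XLOC_030279), a locus of few reads, held 29.9, 30.9, 44.0 and 24.3 FPKM in the same groups. The 4 H1 loci summed to 328 ± 40.3, 382 ± 74.6, 320 ± 52.2 and 343 ± 71.8 FPKM in TNFSG, TNF, SG and control, with overlap. The 11 H2A loci summed to 1069 ± 761, 755 ± 524, 742 ± 75.7 and 521 ± 144 FPKM in the same groups, and without HIST1H2AM to 165, 168, 169 and 171 FPKM.

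Head-to-head pairs shared a start region but not always a change. GENCODE 29 places the starts of HIST1H2BJ and HIST1H2AG 292 bases apart (hg38 chromosome 6, 27132750 and 27133042), and this was the pair in which both genes were called in the targeted transfection. In the other 6 pairs of an H2A and an H2B gene found from GENCODE gene starts no gene was called. That search can miss pairs, and GENCODE gene starts can differ from the RefSeq starts used for the windows. HIST1H2AK and HIST1H2BN have overlapping RefSeq windows on opposite strands. They were left out because GENCODE starts HIST1H2BN before the start of HIST1H2AK. HIST1H2BK and HIST1H2AH, with GENCODE starts 331 bases apart, had changes of 0.19 ± 0.056 and 0.17 ± 0.18. HIST1H2BF and HIST1H2AD, 277 bases apart, had 0.48 ± 0.11 and 0.16 ± 0.077. In 2 pairs the signs differed on the highest row of each gene, although no member passed. HIST1H2BC (on the row shared with HIST1H2BB) had 0.41 ± 0.11 and HIST1H2AC -0.16 ± 0.051. HIST1H2BG had 0.14 ± 0.067 and HIST1H2AE -0.22 ± 0.13. A row named for HIST1H2BC alone (XLOC_030174), of 0 to 23 reads per library, had the sign of HIST1H2AC. Its changes were -0.25 in SG against control and -1.04 in TNFSG against TNF, and neither passed. Because neighbours share DNA and the table has no strand or coordinates, reads near the shared region may be counted for either gene.

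**Figure D4:**
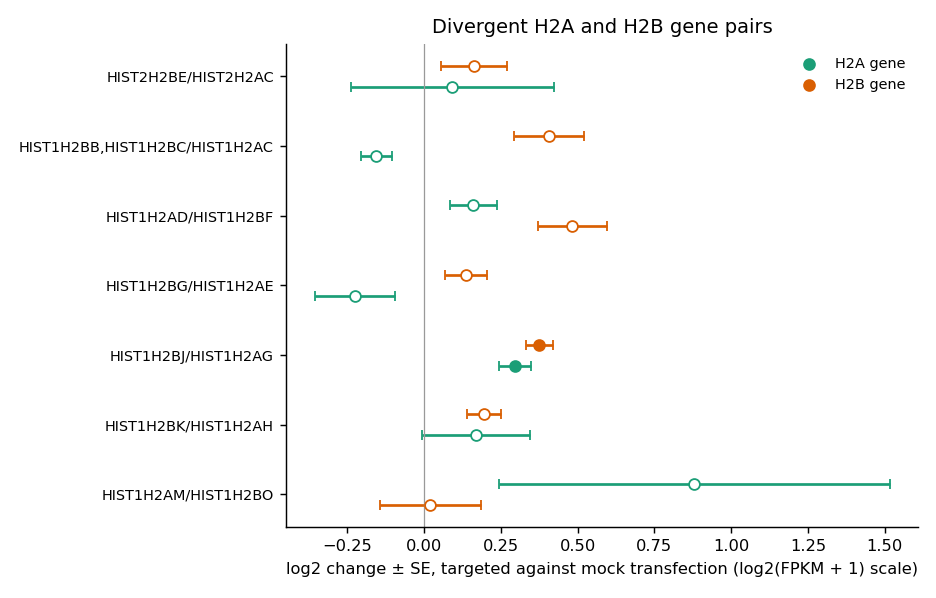
Log2 change (log2(FPKM + 1) scale, bars SE) of the targeted against the mock transfection for the genes of 7 head-to-head pairs of an H2A gene (green) and an H2B gene (orange), filled where the limma adjusted p is under 0.05. Only in the HIST1H2BJ and HIST1H2AG pair are both points filled, at 0.37 and 0.30.

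The members were also split by features of their genes. The highest locus that carries a single symbol was taken for each of the 38 protein-coding symbols. The row shared by HIST1H2BB and HIST1H2BC was left out, so these symbols entered by loci of 1.33 and 1.19 FPKM. The median change after the targeted transfection was 0.16 in the 19 symbols with an octamer in the promoter and 0.26 in the 16 without. It was 0.15 in the 16 symbols with an annotated transcript of at least 50 bases past the stem-loop and 0.19 in the other 22. Those 22 included HIST1H1C, HIST1H2BD, HIST1H2BJ and HIST1H2BK, which are known to give polyadenylated mRNA. This split therefore follows the annotation and not the mRNA ends in these cells. The split by unique windows came next. The median change was 0.15 in the 26 symbols whose windows were at least 90% unique and 0.21 in the other 12. In those 12, 12 of 12 changes were above 0, against 16 of 26. Under TNF, changes above 0 stood in 4 of those 12 symbols and in 17 of those 26. Median levels were 7.62 FPKM in the symbols with a transcript past the stem-loop and 3.19 FPKM in those without. None of these splits was tested, and loci of few reads stand in each.

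Of the genes known to give polyadenylated histone mRNA, 7 of 7 were tested, each by its highest locus, and 1 (HIST1H2BJ) rose after the targeted transfection. The others were HIST1H2BK with a change of 0.19, HIST2H2BE with 0.16, HIST1H4H with 0.08, HIST1H1C and HIST1H2AC with -0.16 each, and HIST1H2BD with -0.43. The 7 genes had a median of 0.08, against 0.09 for all loci and 0.06 for loci of at least 5 FPKM on average. Of the testis histone genes, 0 of 4 met the limit of 1 FPKM in 3 libraries. Of 12 replication-independent histone genes, 8 were tested and 0 passed in either averaged effect, with median changes of 0.01 after the targeted transfection and -0.02 under TNF. At an unadjusted p under 0.05, the changes after the targeted transfection were -0.13 for H2AFZ and 0.19 each for H2AFV and H2AFY (limma adjusted p of 0.31 to 0.325). At the same limit the changes under TNF were 0.29 for H1FX (limma adjusted p = 0.115) and -0.11 for H2AFX (limma adjusted p = 0.306).

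Among 18 genes of histone mRNA synthesis and 3 prime processing, 1 fell after the targeted transfection and 1 fell under TNF. POU2F1, the gene of Oct-1, had 2.34, 2.4 and 2.14 FPKM in TNFSG and 4.15, 5.63 and 4.72 FPKM in TNF. It had 2.31, 3.09 and 2.18 FPKM in SG and 4.44, 5.38 and 4.55 FPKM in control. All 6 libraries with the targeting oligonucleotides lay below all 6 without. The change was -0.77 ± 0.11, with a limma adjusted p of 0.012, and it held in all 12 fits with 1 library left out. NPAT, the cyclin E and CDK2 target that activates histone genes, had -0.27 ± 0.069 and did not pass (limma adjusted p = 0.103).

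SLBP, which binds the stem-loop, had 53.9, 60.7 and 55.5 FPKM in TNFSG and 71.3, 69.7 and 75.4 FPKM in SG. It had 58.4, 66.8 and 64.2 FPKM in TNF and 72.9, 81.3 and 79.7 FPKM in control. Libraries with TNF lay below all of those without it. The TNF effect averaged over both transfections was -0.32 ± 0.053, with a limma adjusted p of 0.00826, and it held in all 12 fits with 1 library left out. The histone loci gave no call in the same comparison.

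Among 14 histone chaperones, ASF1B, which carries H3 and H4 to newly made DNA, rose after the targeted transfection, with 41.4, 40.5 and 42.7 FPKM in TNFSG, 37.2, 31.4 and 33.4 FPKM in TNF, 41.9, 40.3 and 41.6 FPKM in SG, and 34.7, 29.9 and 30.1 FPKM in control. The groups with and without the targeting oligonucleotides did not overlap, and the change was 0.33 ± 0.056, with a limma adjusted p of 0.0293. With 1 library left out this call failed in 10 of 12 fits, all but those without TNF replicate 1 or control replicate 1 (adjusted p up to 0.0877). It also failed in 3 of 9 other settings, which were median-ratio scaling, quantile normalization and limma without its trend (adjusted p up to 0.0921). Of 22 DNA replication genes, 21 were tested, and 0 passed after the targeted transfection, where 15 were above 0. Their median was 0.11, against 0.09 for all loci and 0.06 for loci of at least 5 FPKM on average, a difference that was not tested. Under TNF 1 of them, MCM4 of the replicative helicase, fell by 0.17 (log2, limma adjusted p = 0.0484), a call that failed in each of 12 fits with 1 library left out and in 4 of 9 other settings (adjusted p up to 0.212). Of 9 genes of histone mRNA decay, 0 passed in either averaged effect.

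**Figure D5:**
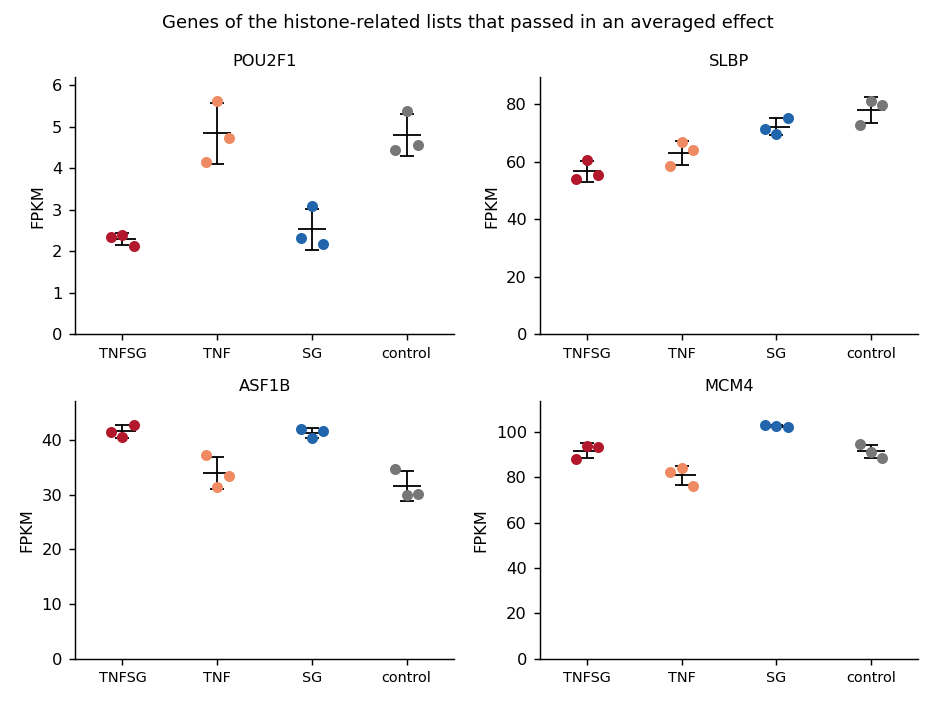
FPKM in each library (points), with group mean and SD (bars, n = 3), of POU2F1, SLBP, ASF1B and MCM4 in TNFSG, TNF, SG and control. POU2F1 lies at 2.14 to 3.09 FPKM in TNFSG and SG and at 4.15 to 5.63 FPKM in TNF and control, while SLBP is lower in both groups with TNF.

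The loci most like HIST1H3H (XLOC_029088) over the 12 libraries, by Pearson correlation of log2(FPKM + 1) among 13708 loci of at least 5 FPKM on average, were C14orf159 (0.977), the row shared by ANAPC7 and ARPC3 (0.974), CPLX1 (0.974), NEK9 (0.97) and MAGEC2 (0.961). None of them is a histone gene. The 12 libraries share the group structure, which by itself gives high correlations among loci that moved with the targeted transfection.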

How the data were processed

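The deposited table gives FPKM values per locus, made by the authors with Bowtie2 2.2.9, TopHat2 2.0.14 and Cufflinks on hg38, per the submitters' processing notes. For Cufflinks no version, and for the table no annotation release or use of strand, is given in the sources used here. Per the labels' protocols, Trizol RNA was sequenced in single reads of 50 bases. Columns were matched to samples by title.

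Members and gene lists were chosen with earlier results of these data known. Values were transformed as log2(FPKM + 1), so changes of low loci are understated. Loci of at least 1 FPKM in at least 3 libraries were fitted with limma 3.58.1 (R 4.3.3), 1 mean per group over 12 libraries, with a trend, two-sided and with Benjamini-Hochberg adjustment at 0.05. The model was also run on simulated independent values without shared library or replicate effects, so that run cannot speak to such effects here. P-values set differences of group means against the spread between labelled replicates, which limma moderates over all loci. Whole reads were recovered for 22339 of 37046 loci (tolerance 0.04 reads) and 23 members, for description only.

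The text names every called member, the highest 3 and lowest of each type and the polyadenylated list. Of the lowest p values per comparison and of the loci of split symbols it names only a part. HIST1H3B, HIST1H3D, HIST1H3F, HIST1H3J, HIST1H4E, HIST1H4K, HIST1H2BF, HIST1H2BL, NPAT, H1FX, H2AFV, H2AFX, H2AFY, H2AFZ, H3F3A and the pairs were named after their values were seen. Sequences are from GENCODE 29 and RefSeq.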

Additional observations from a re-analysis of the deposited data

How the results depend on the processing

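Without a library in turn, the count of histone loci called was 2 to 3 for the targeted transfection averaged over both TNF states (4 with all), 0 to 1 for SG against control, and 0 to 1 for the averaged TNF effect. With loci of at least 5 FPKM only, 2 loci were called for SG against control, 2 for TNFSG against TNF and 1 for the averaged TNF effect, with fewer loci tested. Quantile normalization and limma without the trend each left 2 in the averaged targeted effect, and limma without the trend and a fit of only the groups compared each left 0 in SG against control. Robust empirical Bayes gave 2 in TNFSG against TNF. With the replicate block, 5 loci were called in the averaged targeted effect, among them the row of HIST1H2BB and HIST1H2BC (limma adjusted p = 0.0366), which is not called without it. The block also gave calls elsewhere: 2 loci were called for SG against control, 2 for TNFSG against TNF and 1 for the averaged TNF effect. Same-numbered libraries deviated together little (18 pairs, correlations of -0.049 to 0.14, 5 of 12 libraries closest to their own number), so the numbers were not taken as pairs. The cause was not tested. The summed H2B level was 186 FPKM in TNF and 195 FPKM in SG with median-ratio scaling. Without HIST1H2AM, an alternative chosen after seeing the data, the H2A sum was 165, 168, 169 and 171 FPKM in TNFSG, TNF, SG and control. No called locus changed sign in the settings run, whereas the members' median of the averaged TNF effect was 0.01 with median-ratio scaling and -0.0046 without. Unknown depth limits the members under 5 FPKM most.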
